A study of Drosophila melanogaster with 6 samples.

Results

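Cholinergic neurons outside the mushroom body were chosen by UMI counts of marker genes in single-cell RNA-seq of dissociated Drosophila melanogaster brains. A droplet barcode was a member when it held at least 1000 unique molecular identifiers (UMIs, each counting 1 captured transcript) with at most 20% of them from mitochondrial (mt:) genes. It also needed at least 3 UMIs of VAChT plus ChAT, at most 1 UMI each of VGlut and Gad1, and no UMI of prt, Vmat, TfAP-2, bsh, dimm or repo. These limits gave 24358 members among 98882 barcodes past the UMI and mt: limits, or 24.6%. The study held 3 libraries of tau P251L KI flies (labelled elav-tau P251L KI) and 3 libraries of control flies (labelled elav-GAL4(x)/+). The knock-in changes an amino acid of tau, the fly gene of the microtubule-binding protein Tau, and elav-GAL4 is a driver transgene active in neurons. Each library pooled the brains of 20 male and 20 female flies. The sources used here do not give fly age, the copy number of the knock-in allele, or whether the knock-in flies also carried elav-GAL4.

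Acetylcholine is the main fast excitatory transmitter of the insect brain, so cholinergic neurons include most sensory relay and many optic lobe neurons. ChAT (choline acetyltransferase) makes the transmitter, VAChT (the vesicular transporter) loads it into vesicles, ChT takes choline back up and Ace (acetylcholinesterase) breaks the transmitter down. VAChT lies inside ChAT on chromosome arm 3R and the genes share their start. Acetylcholine acts through nicotinic channels, built from alpha and beta subunits, and through the muscarinic receptors mAChR-A and mAChR-B. Kenyon cells of the mushroom body are also cholinergic, and the requirement for no prt UMI (portabella, a vesicular transporter of these cells) was meant to leave them out.

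Knock-in libraries gave 6788, 6657 and 1912 members, and control libraries gave 1216, 6478 and 1307. Each matrix held between 22026339 and 114599045 UMIs. Knock-in replicates 1 and 2 and control replicate 2 held over 50000000 UMIs and are called deep, and the other 3 libraries are called shallow. The median count per member was 2810, 2028 and 2660.5 UMIs in the knock-in libraries and 1841, 2709 and 2244 UMIs in the controls. The group means were 2500 ± 415 and 2265 ± 434 UMIs for knock-in and control libraries, and the groups overlapped (exact permutation test, two-sided, p = 0.6, n = 3 each). This test cannot give a p below 0.1 for groups of 3. Of the barcode sequences, 67 occurred among the members of 2 or more libraries.

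The limits themselves shaped who was counted. At least 3 UMIs of VAChT plus ChAT were found in 39093 barcodes, and 62.3% of these met every other limit. A UMI of TfAP-2 marked 10.7% of the 39093, a UMI of prt 9.46%, over 1 UMI of VGlut 10.2% and over 1 UMI of Gad1 7.15%, and a barcode could fail on several counts. Members with exactly 3 UMIs of VAChT plus ChAT numbered 6324, and 7699 barcodes with exactly 2 met the remaining limits and were left out. The mean count per member was between 3.33 and 5.08 UMIs for VAChT and between 1.42 and 2.37 UMIs for ChAT across the 6 libraries.

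Markers set the members among neurons. After every cell was thinned to 1000 UMIs, 87.2 ± 0.781% of members held a UMI of fne, 86.4 ± 1.62% of nSyb and 83.4 ± 3.02% of Syt1, all broadly expressed in neurons (mean ± SD over 6 libraries). Glial genes were rarer, with alrm in 2.11 ± 1.66% and Gat in 1.93 ± 1.67% of members, against 31.2 ± 11.5% and 36.7 ± 6.46% of the 268 barcodes with at least 2 UMIs of the glial gene repo. VAChT or ChAT UMIs also occurred in those glial barcodes, in between 0% and 47.3% of them per library at median depths of 2332 to 8215 UMIs. Whether free RNA or doublets gave these UMIs was not tested.

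Genes of Kenyon cells were present among the members to unequal degrees. At least 2 UMIs over ey (Pax6), Dop1R2 (a dopamine receptor) and crb (crumbs) were held by 7.52 ± 1.05% of members, against 87.1 ± 5.37% of barcodes that had prt and otherwise met the same limits (mean ± SD over 6 libraries, cells not thinned). The share was between 7.27% and 8.84% in knock-in libraries and between 6.41% and 7.36% in controls. Other genes used as Kenyon cell markers were common in members, with mub in 74.5 ± 4.43% and Pka-C1 in 54.5 ± 3.34%, against 98.3 ± 1.08% and 95.5 ± 2.51% of the prt barcodes. Without thinning, at least 3 UMIs over a wider list (ey, Dop1R2, mub, crb, sNPF, Pka-C1 and dac) were held by 86.3% to 90.4% of members in knock-in and 75.8% to 88.3% in control libraries, so that list does not mark off Kenyon cells. The 3 genes ey, Dop1R2 and crb were chosen after these values were seen.

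What the members share beyond the limits was first read against the mirrored gates for glutamatergic neurons (10356 cells with at least 3 UMIs of VGlut) and GABAergic neurons (7256 cells with at least 3 UMIs of Gad1). The classes were cut from UMIs of the same cells, so differences between them are descriptions with no test. Levels in this comparison are CPM, the usual depth-scaled counts, of the summed UMIs of a class in a library, scaled over all classes and libraries by TMM factors, and differences are log2 of CPM plus 1. Of 5523 features with enough UMIs, 66 were at least 2-fold higher on average and higher in 6 of 6 libraries in cholinergic than in glutamatergic neurons (1.20%), and 43 were lower (0.779%). Against GABAergic neurons, 62 of 5522 features were higher (1.12%) and 50 were lower (0.905%). Genes of the limits and mt: genes were left in these counts. VAChT and ChAT are thus among the higher features because the limits chose the cells by them, and VGlut and Gad1 set the other classes in the same way.

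ChT had a level of 187 to 227 CPM in cholinergic neurons, against 9.59 to 24.7 CPM in glutamatergic and 7.78 to 21.1 CPM in GABAergic neurons. The class ranges did not overlap, and the difference was 3.71 ± 0.438 log2 against glutamatergic and 4.03 ± 0.460 against GABAergic neurons (SD over 6 libraries). ChT lies 18762 bases from VAChT on the same chromosome arm. Ace had a level of 724 to 1146 CPM in cholinergic, 489 to 714 CPM in glutamatergic and 307 to 479 CPM in GABAergic neurons. It was higher in cholinergic neurons in 6 of 6 libraries, by 0.65 ± 0.118 log2 against glutamatergic and 1.35 ± 0.229 against GABAergic neurons.

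Receptors for acetylcholine were spread over all 3 classes. nAChRalpha6, a subunit gene, was higher by 0.49 ± 0.129 log2 against glutamatergic and 0.46 ± 0.127 against GABAergic neurons, in 6 of 6 libraries each. nAChRalpha7 differed by −0.24 ± 0.0584 log2 against glutamatergic and −0.55 ± 0.0931 against GABAergic neurons, lower in 6 of 6 libraries each. mAChR-B showed the widest difference among the receptors with enough UMIs, at −0.97 ± 0.210 log2 against glutamatergic and −0.95 ± 0.241 against GABAergic neurons.

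The members were not of 1 kind, and many transcription factors that mark neuron types were each held by a minority of them. Others were widespread, and UMIs of the factors pros and chinmo met in 11322 of the 24358 members after thinning. After thinning to 1000 UMIs, acj6, a POU-domain factor of olfactory and other neurons, had a UMI in 16.6 ± 0.881% of cholinergic, 1.74 ± 1.13% of glutamatergic and 1.88 ± 0.812% of GABAergic neurons. In the glial barcodes the acj6 share was 2.97 ± 4.12%. The paired-type homeodomain factor Drgx was held by 6.48 ± 0.470% of cholinergic, 0.697 ± 0.230% of glutamatergic and 0.740 ± 0.445% of GABAergic neurons. Both genes thus had shares several times higher in the cholinergic class than in the other neuron classes, in 6 of 6 libraries on the CPM scale.

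The LIM-homeodomain genes ap (apterous) and Lim1 and the SoxD gene Sox102F also leaned to cholinergic neurons. Shares for ap were 12.7 ± 1.40% in cholinergic, 2.73 ± 0.754% in glutamatergic and 0.880 ± 0.537% in GABAergic neurons. Shares for Lim1 were 14.8 ± 0.871%, 4.49 ± 1.39% and 7.11 ± 0.940% in the same order of classes. Shares for Sox102F were 13.3 ± 1.68%, 2.32 ± 0.722% and 0.985 ± 0.746%. Some factors were shared with a single other class. The NK-2 homeobox gene scro was held by 29.8 ± 3.11% of cholinergic and 19.7 ± 4.23% of glutamatergic neurons but by 2.72 ± 1.60% of GABAergic neurons. The Pax6 gene toy was held by 25.3 ± 0.921% of cholinergic and 21.6 ± 3.57% of GABAergic neurons but by 7.34 ± 1.75% of glutamatergic neurons.

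Other factors had lower shares in the cholinergic class. The ETS gene Ets65A was held by 1.94 ± 0.548% of cholinergic, 12.6 ± 1.55% of glutamatergic and 11.2 ± 2.82% of GABAergic neurons. The Islet gene tup had shares of 2.60 ± 0.322%, 14.8 ± 4.11% and 8.58 ± 1.37%, and Lim3 had shares of 3.29 ± 0.317%, 10.2 ± 1.54% and 23.0 ± 3.67%. The COE-family gene kn was held by 2.52 ± 0.593% of cholinergic and 13.7 ± 2.58% of glutamatergic neurons, against 0.622 ± 0.319% of GABAergic neurons.

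**Figure D1:**
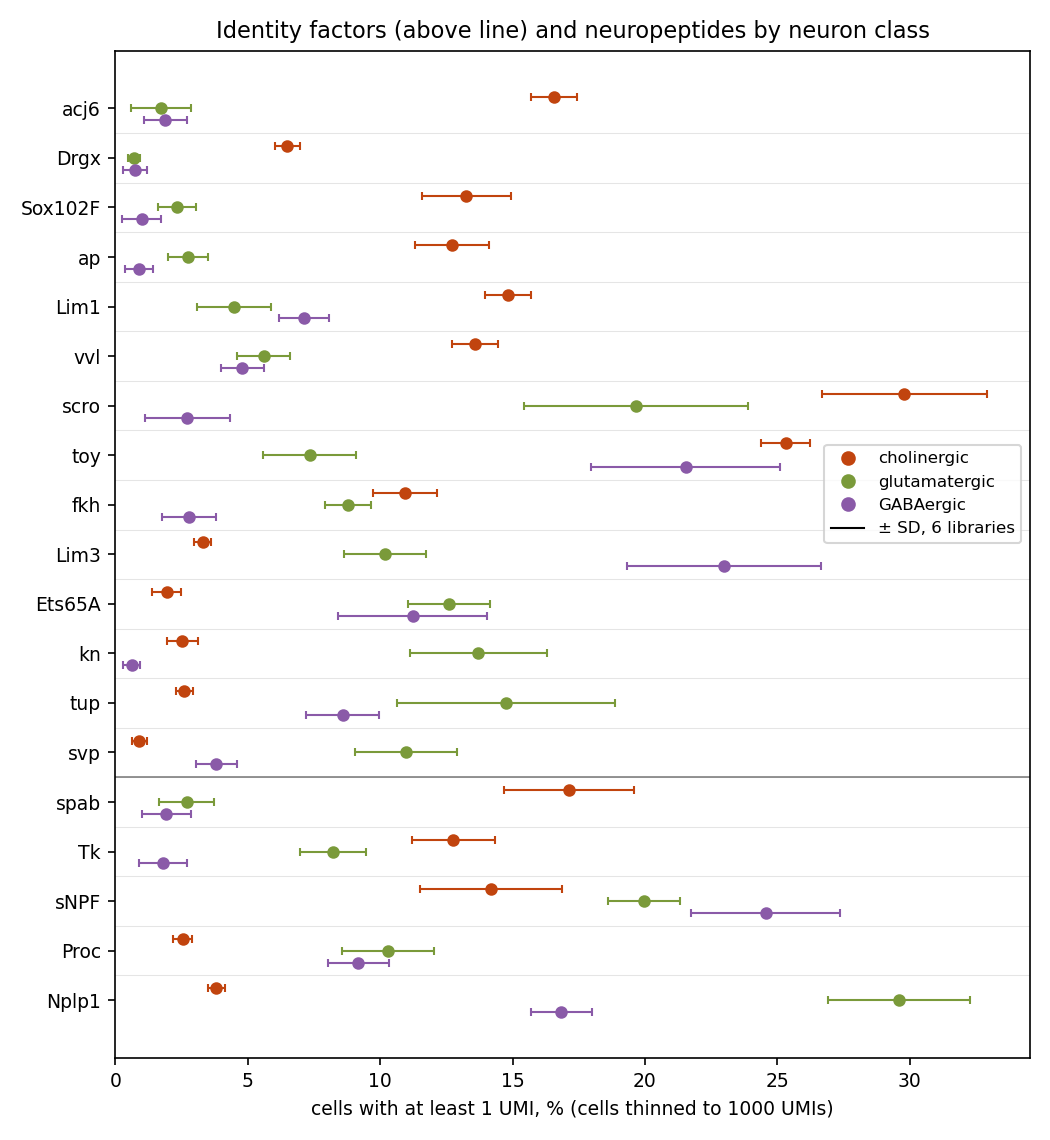
Share of cells with at least 1 UMI (x axis, in %, cells thinned to 1000 UMIs) for 14 transcription factors (above the line) and 5 neuropeptide genes (below it), as mean ± SD over 6 libraries, in cholinergic, glutamatergic and GABAergic neurons. acj6 stands at 16.6% in cholinergic neurons against 1.74% and 1.88%, and Nplp1 at 3.81% against 29.6% and 16.9%.

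Within the cholinergic class, pairs of factors met in the same cells more or less often than their separate shares give. Of 26 factors held by at least 3% of thinned members, 325 pairs were compared per library and summed, as a description over cells that share libraries and depth. acj6 met fkh (forkhead) in 1477 cells against 462 expected, and Drgx in 810 against 265 expected. acj6 met Vsx1, a homeobox gene of the optic lobe, in 41 cells against 169 expected, and Lim1 met ap in 113 against 445. acj6, Drgx and fkh thus formed 1 overlapping set, with ratios of 3.19, 3.06 and 2.89, while Lim1 and ap seldom met (ratio 0.254).

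Neuropeptide genes divided the classes as well. spab (space blanket) was held by 17.1 ± 2.45% of cholinergic, 2.69 ± 1.04% of glutamatergic and 1.92 ± 0.929% of GABAergic neurons, and Tk (tachykinin) by 12.8 ± 1.57%, 8.21 ± 1.24% and 1.79 ± 0.912%. Nplp1, the precursor of several peptides, had a share of 3.81 ± 0.315% in cholinergic, 29.6 ± 2.69% in glutamatergic and 16.9 ± 1.13% in GABAergic neurons. Proc (proctolin) followed the same order at 2.54 ± 0.364%, 10.3 ± 1.74% and 9.18 ± 1.14%. sNPF, which Kenyon cells also express, was held by 14.2 ± 2.69% of members, against 20.0 ± 1.37% and 24.6 ± 2.81% of the glutamatergic and GABAergic cells.

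Among features with at least 30 UMIs in every library in the class where they were higher, the largest mean differences over glutamatergic neurons were asRNA:CR45621 (3.99 log2), acj6 (3.94), sosie (3.86), ChT (3.71) and tey (3.69). The largest over GABAergic neurons were asRNA:CR45621 (4.10), sosie (4.06), Sox102F (4.03), ChT (4.03) and spab (3.97). Lowest against glutamatergic neurons were CG46448 (−5.96), DIP-lambda (−4.41, a cell-surface immunoglobulin protein), Nplp1 (−3.74), fd59A (−3.66, a forkhead factor) and Lmx1a (−3.64, a LIM-homeodomain factor). Lowest against GABAergic neurons were CG14989 (−7.61), Poxn (−5.19, a factor of ellipsoid body ring neurons), CG14687 (−5.08), CG11294 (−4.32) and HLH3B (−4.08). CG14989 overlaps Gad1 on the opposite strand and CG46448 lies 8190 bases from VGlut, so both lie beside a gene that set the class they mark. The strand setting of the counting is not given in the sources used here.

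The share of cholinergic neurons did not differ between the genotypes beyond the spread between libraries. Members were 25.3%, 22.0% and 26.8% of barcodes in knock-in replicates 1 to 3, and 22.7%, 27.3% and 23.8% in control replicates 1 to 3. Wilson binomial intervals (95%, counting error only) ran from 24.8% to 25.8%, 21.5% to 22.4% and 25.7% to 27.8% in the knock-in libraries. In the controls they ran from 21.6% to 23.9%, 26.8% to 27.9% and 22.7% to 24.9%. The groups overlapped, with means of 24.7 ± 2.46% and 24.6 ± 2.41% for knock-in and control libraries (two-sided exact permutation p = 1, n = 3 each). Thinned to 1000 UMIs before the limits were applied, the means were 11.3 ± 0.799% and 11.95 ± 1.02% in the same order (exact permutation p = 0.4, n = 3 each), so the gate depended on depth.

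Among cholinergic, glutamatergic and GABAergic neurons together, the cholinergic share was 60.8%, 54.0% and 53.0% in knock-in libraries and 56.2%, 62.9% and 54.5% in controls. The means were 55.9 ± 4.26% and 57.9 ± 4.42% for knock-in and control libraries (exact permutation p = 0.5, n = 3 each). After thinning they were 44.0 ± 3.995% in knock-in and 49.1 ± 4.12% in control libraries (exact permutation p = 0.2, n = 3 each).

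**Figure D2:**
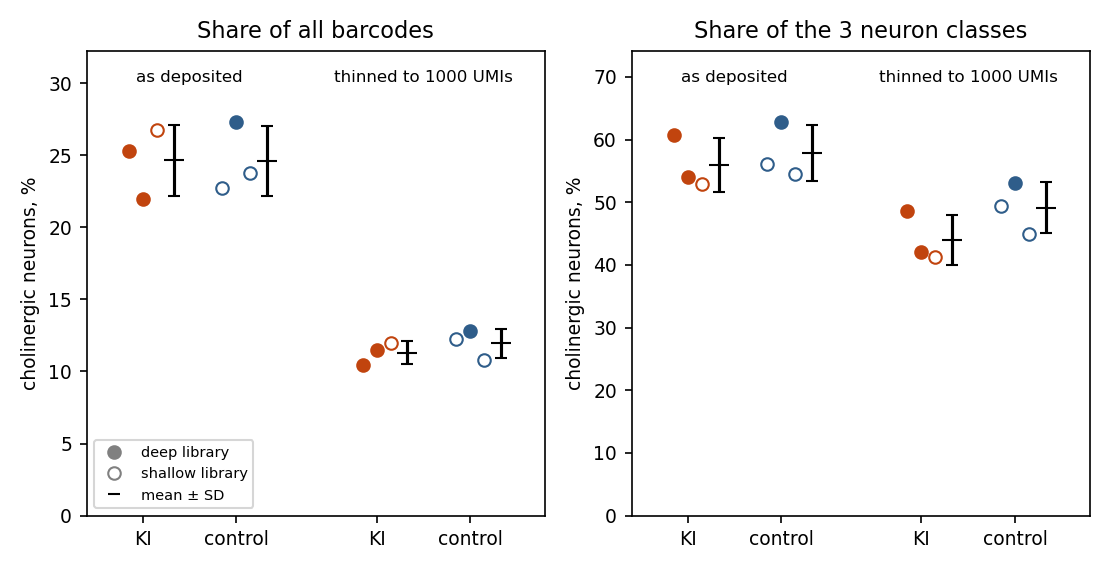
Cholinergic neurons as a share (y axis, in %) of all barcodes past the limits (left) and of the 3 neuron classes together (right), as deposited and after thinning, with 1 point per library and mean ± SD. Knock-in and control libraries overlap in every panel, with means of 24.7% and 24.6% at the far left.

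The targeted gene, tau (FBgn0266579, chromosome arm 3R, 27639886 to 27656996), was read in every library. Its level in members was 302, 329 and 64.4 CPM in knock-in replicates 1 to 3, and 248, 260 and 292 CPM in control replicates 1 to 3. Knock-in replicate 3 stood below all other libraries, and knock-in replicates 1 and 2 stood above the controls. tau UMIs were present in 55.5%, 45.5% and 16.7% of members in knock-in libraries, and in 39.6%, 51.1% and 47.4% in controls. The log2 fold change was −0.20 (SE 0.479) and did not pass (edgeR quasi-likelihood test, adjusted p = 0.902). Without knock-in replicate 3 it was 0.25.

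The genotypes were compared across all features with edgeR on UMI sums per library, with the Benjamini-Hochberg adjusted p under 0.05 as threshold. CPM of the genotype comparison are scaled by the TMM factors of the fit for each class. The labels do not say whether the pools of a genotype came from separate crosses or days, so p-values measure the spread between these libraries. In cholinergic neurons 31 of 8825 features passed (0.351%), 14 higher (0.159%) and 17 lower (0.193%) in the knock-in, and 783 had an unadjusted p under 0.05. The passing features were 21 genes and 10 transposable element insertions. None was a gene used by the limits. The 2 groups did not overlap for any of the 31, against 15.9% of all features tested (7.37% higher, 8.49% lower). The lack of overlap fixes the same direction in the deep and in the shallow libraries, so that agreement adds no support. The median log2 fold change over all features was −0.0031.

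**Figure D3:**
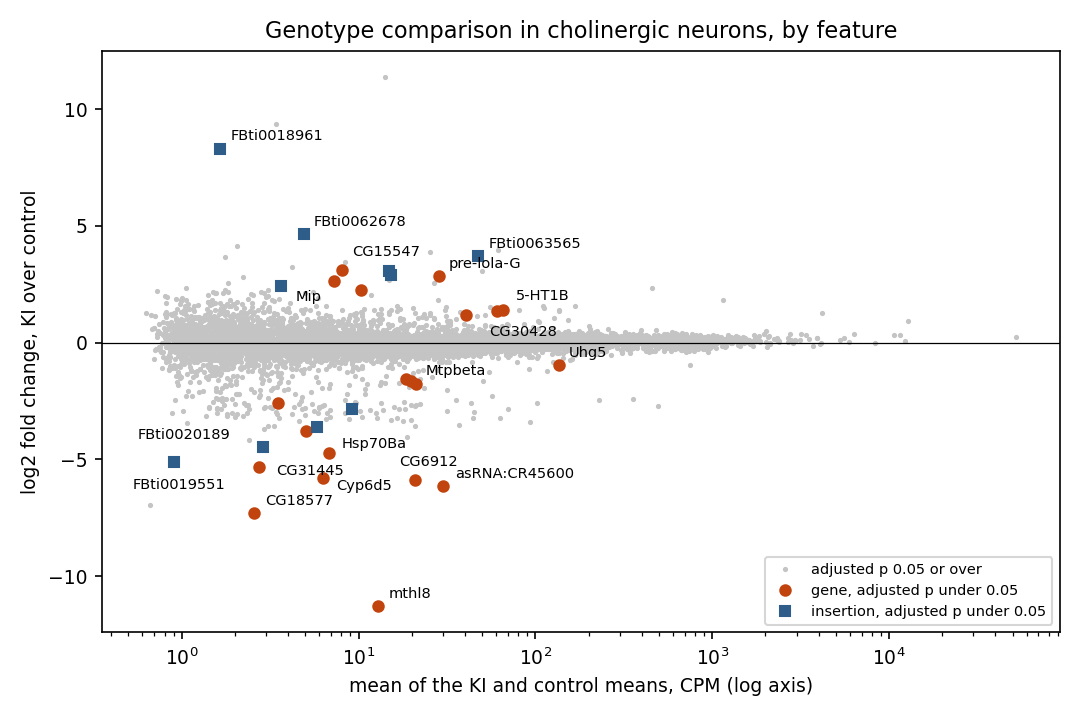
Mean level in cholinergic neurons (x axis, CPM, log axis) against log2 fold change of KI over control (y axis) for the features tested, genes of the limits and mt: genes left out. Passing features are marked as genes (circles) or insertions (squares), and most features lie close to 0. Positions of mthl8 and FBti0018961, each at 0 in 1 group, depend on the prior count of the fit.

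Several genes with known roles rose in knock-in cholinergic neurons. pre-lola-G, an annotated transcript of the lola locus (a zinc finger factor of axon guidance), had 49.6, 56.5 and 44.1 CPM in knock-in libraries, against 6.30, 7.72 and 6.16 CPM in controls. This was a 7.24-fold higher level (log2 2.86, SE 0.183, adjusted p = 0.000507). escl, a paralog of the Polycomb subunit gene esc, had 23.5, 11.3 and 17.1 CPM in knock-in libraries, against 4.20, 4.02 and 2.24 CPM in controls, or 4.84-fold higher (adjusted p = 0.0434). On the same strand, pre-lola-G overlaps lola and escl overlaps dgt2, and reads within the overlaps cannot be told apart.

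Receptor and ligand genes were among the increases as well. 5-HT1B, a serotonin receptor gene (chromosome arm 2R, 19022325 to 19032642), had 91.3, 102 and 94.5 CPM in knock-in libraries, against 30.5, 40.4 and 37.2 CPM in controls. It was 2.64-fold higher (log2 1.40, SE 0.144, adjusted p = 0.00737), and its UMIs were held by 16.9% to 20.99% of members in knock-in and 6.25% to 10.6% in control libraries. CG43351 overlaps it on the other strand. 5-HT1B was the only 1 of 15 monoamine receptor genes tested that passed. myo (myoglianin, a TGF-beta family ligand) had 51.1, 54.4 and 63.0 CPM in knock-in libraries, against 20.7, 27.0 and 26.0 CPM in controls, or 2.26-fold higher (adjusted p = 0.0332).

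Mip, the precursor of the myoinhibiting peptides, had 11.8, 14.9 and 11.5 CPM in knock-in libraries, against 1.75, 2.81 and 0.5596 CPM in controls (6.31-fold higher, adjusted p = 0.0434). Few cells carried it. Its UMIs lay in 123 of the knock-in members, with up to 73 in 1 cell, and in 27 of the control members, with up to 10 in 1 cell. Mip was the only 1 of 27 neuropeptide genes tested that passed. CG15547 was 8.55-fold higher, with 11.5, 15.7 and 16.2 CPM in knock-in libraries against 1.05, 1.79 and 1.96 CPM in controls (adjusted p = 0.00457). CG15547 overlaps Sap-r on the same strand, and reads within the overlap cannot be told apart. CG30428 was 2.58-fold higher, with 84.8, 84.9 and 92.8 CPM in knock-in libraries against 33.6, 32.4 and 35.8 CPM in controls (adjusted p = 0.00457).

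The decreases included genes that were close to absent from knock-in members. mthl8, of the methuselah-like receptor family (chromosome arm 3L, 22428 to 26308), had no UMI in any knock-in library, against 26.3, 25.2 and 25.7 CPM in controls. With 731 UMIs in 668 control members, it was at least 369-fold lower against a floor of 3 UMIs over the knock-in group (adjusted p = 0.000292). CG18577 had 1 UMI in the knock-in group and 147 in the controls, a ratio of 0.00449 with an exact 95% counting interval of 0.000113 to 0.0254 (adjusted p = 0.00498). CG6912 had 0.611, 0.829 and 0.641 CPM in knock-in libraries, against 34.3, 48.7 and 40.8 CPM in controls, or 59.2-fold lower (log2 −5.89, SE 0.246, adjusted p = 4.40e-05).

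asRNA:CR45600, which overlaps CG6912 on the same strand, had 0.480, 0.483 and 2.24 CPM in knock-in libraries, against 62.3, 57.1 and 56.8 CPM in controls (adjusted p = 0.00160). Reads of the 2 features cannot be told apart where they overlap. CG6654, chosen for mention after its values were seen, lies 74.3 kb from CG6912 on arm 3R. Its levels were 8.90, 11.3 and 9.13 CPM in knock-in libraries and 34.3, 31.1 and 24.9 CPM in controls (3.07-fold lower, adjusted p = 0.0154).

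Enzyme genes made up part of the list. Mtpbeta, the beta subunit of the mitochondrial trifunctional protein of fatty acid oxidation, had 11.4, 8.63 and 8.65 CPM in knock-in libraries, against 33.6, 33.7 and 30.2 CPM in controls (3.37-fold lower, adjusted p = 0.00705). Gfat1, which opens the hexosamine pathway, had 0.742, 1.24 and 0.961 CPM in knock-in libraries, against 5.60, 5.13 and 7.27 CPM in controls (6.05-fold lower, adjusted p = 0.0350). stg (string, the Cdc25 phosphatase of the cell cycle) had 0.524, 1.17 and 0.1602 CPM in knock-in libraries, against 7.70, 10.2 and 10.4 CPM in controls (13.9-fold lower, adjusted p = 0.0279).

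CG31445 lies 6999 bases from stg and also fell, with 6 UMIs in knock-in members against 214 in control members (adjusted p = 0.0361). A single control cell held 96 of those 214 UMIs. Cyp6d5, a cytochrome P450 gene, had 0.0873, 0.276 and 0.481 CPM in knock-in libraries, against 14.0, 20.8 and 2.24 CPM in controls (55.4-fold lower, adjusted p = 0.0453), and 1 control cell held 188 of its 514 control UMIs. Neither value was computed without those cells.

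Hsp70Ba, an inducible heat shock gene, had 0.175, 0.483 and 1.12 CPM in knock-in libraries, against 17.5, 6.25 and 15.4 CPM in controls (26.1-fold lower, adjusted p = 0.0342). Its value is uncertain, since near-identical Hsp70 copies can share reads. Hsp26 and Hsp83, the most abundant genes of the stress list, had adjusted p = 0.901 and 0.815. Ir76a (an ionotropic receptor) and Uhg5 (a host gene of small nucleolar RNAs), also chosen after their values were seen, had log2 fold changes of −1.55 and −0.97 (edgeR adjusted p = 0.00868 and 0.0497).

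**Figure D4:**
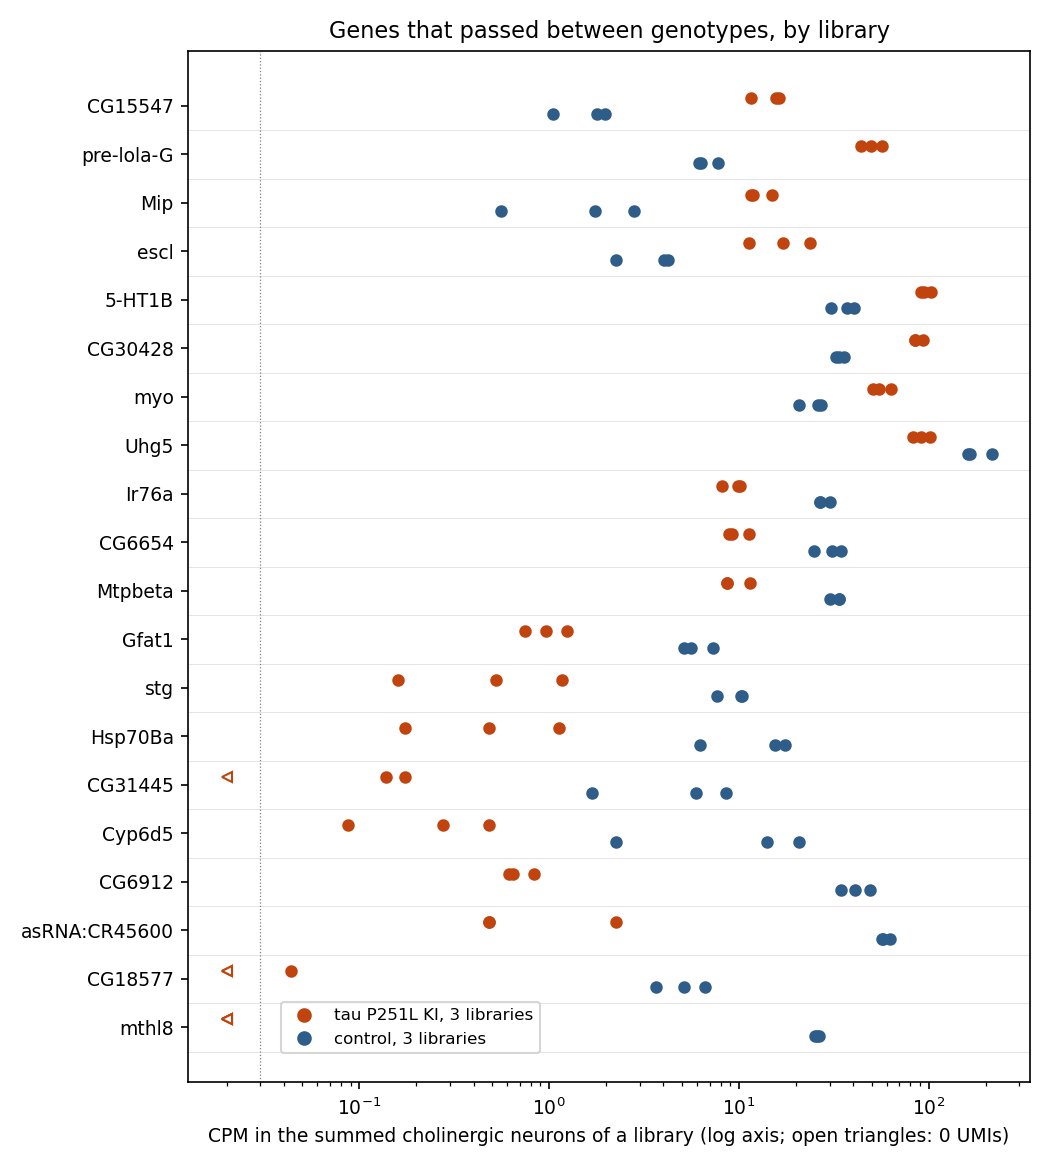
Level (x axis, CPM in the summed cholinergic neurons of a library, log axis) of passing genes, with 3 knock-in libraries above 3 control libraries in each row and open triangles for 0 UMIs. Groups do not overlap in any row, and mthl8 is at 0 in all knock-in libraries against 25.2 to 26.3 CPM in controls.

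Transposable element insertions were 10 of the 31 passing features (32.3%) and 7.21% of the features tested. Copies of 1 element family may take each other's reads, which makes the level of any 1 of them uncertain. FBti0018961 (2R) had 145 UMIs in knock-in members and none in controls, at least 31.9-fold higher against a floor of 3 UMIs over the control group (adjusted p = 0.0284). FBti0062678 (chromosome 4) had 13.9, 10.5 and 4.01 CPM in knock-in libraries, against 0, 0.402 and 0.5596 CPM in controls (25.3-fold higher, adjusted p = 0.0342). FBti0019551 (X, within kirre) had 2 UMIs in knock-in members and 56 in control members, a ratio of 0.0236 with an interval of 0.00279 to 0.0893 (adjusted p = 0.0482). FBti0020189 (3L) had 0.306, 0.276 and 0 CPM in knock-in libraries, against 8.75, 4.82 and 3.08 CPM in controls (adjusted p = 0.0419).

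Passing features lay near each other in places. CG30428 and the insertions FBti0061531 and FBti0059730, all higher in the knock-in, lie within 3.62 kb of each other on 2R. FBti0062678 and FBti0102108, also both higher, lie 30.0 kb apart on chromosome 4. Chromosome arm 3R, which carries tau, held 11 of the 31 (35.5%) and 23.3% of the features tested. Of the 31, 4 started within 5 Mb of tau (12.9%), as did 7.47% of the features tested. The labels name no second stock or cross of either genotype, so genotype and genetic background cannot be told apart.

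Single libraries carried weight in these calls. Of the 31, 7 still passed when knock-in replicate 1 was left out, 14 when replicate 2 was and 31 when replicate 3 was. Leaving out control replicates 1, 2 and 3 in turn left 8, 14 and 20 of the 31. No direction changed under any alternative run. CG15547, pre-lola-G, CG30428, mthl8, asRNA:CR45600 and CG6912 passed under every one of the alternatives that gave them a value. 5-HT1B had adjusted p up to 0.0579, with log2 fold changes of 1.30 to 1.501, and did not pass without knock-in replicate 1 or without cells of 3 or more UMIs of the wider Kenyon cell list. The last of these took out 75.8% to 90.4% of members and left 5639 features tested.

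Other calls were less stable. Mip was called in 13 of 18 alternatives. It did not pass without knock-in replicate 1 or 2, without control replicate 1, with a library-specific UMI minimum or without cells of ey, Dop1R2 and crb UMIs, and its log2 fold change was 3.52 without control replicate 2. Uhg5 lost its call in 9 of 19 alternatives, among them RLE size factors and every left-out library except knock-in replicate 3, with log2 values of −1.04 to −0.83. myo lost it in 7 of 19, escl in 5 of 19 and Gfat1 in 7 of 18. Mtpbeta lost it only without control replicate 1, and CG18577 only without knock-in replicate 1, which held its single knock-in UMI. The remaining named genes each lost the call in 3 or 4 alternatives.

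Some fold changes moved by over 1.5 times when 1 library was left out. Leaving out knock-in replicate 1 gave −5.14 log2 for Cyp6d5 and −4.08 for Hsp70Ba. Leaving out control replicate 2 gave −5.04 for Cyp6d5 and −4.72 for CG31445. With knock-in replicate 2 out, stg was at −4.48, and with knock-in replicate 3 out, Hsp70Ba was at −5.30 and asRNA:CR45600 at −6.89.

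Genes of acetylcholine signalling did not pass. ChT had 181, 230 and 224 CPM in knock-in libraries and 232, 214 and 193 CPM in controls, and the groups overlapped (log2 −0.01, SE 0.137, edgeR adjusted p = 0.991). Ace averaged 1085 ± 94.9 CPM in knock-in and 902 ± 141 CPM in control libraries (SD, n = 3 each; log2 0.27, SE 0.147, edgeR adjusted p = 0.627). Of 13 receptor genes 12 were tested, none passed, and the median log2 fold change was 0.06. mAChR-B had 41.5, 54.9 and 44.1 CPM in knock-in libraries and 32.9, 30.6 and 33.6 CPM in controls without overlap (log2 0.54, SE 0.157, adjusted p = 0.348). nAChRbeta3 had 1.09, 3.31 and 0 CPM in knock-in libraries and 7.70, 17.3 and 3.36 CPM in controls, also without overlap (log2 −2.64, SE 0.861, adjusted p = 0.403). It passed with a replicate block (−2.81), with a term for deep and shallow libraries (−3.46) and with only all-zero features left out (−2.67), and lay between −3.75 and −1.80 with 1 library left out. The other 10 tested receptors lay between −0.09 (nAChRbeta1) and 0.18 (nAChRalpha3).

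Release, channel and cytoskeleton genes did not pass either. Of 16 vesicle release genes tested none passed, and unc-13, which primes vesicles and was chosen after its values were seen, had log2 0.35 (SE 0.123, adjusted p = 0.462). None of 9 active zone genes, 18 ion channel genes, 13 GABA and glutamate receptor genes or 11 microtubule genes passed. The 18 channel genes had a median log2 fold change of 0.17 and values from 0.01 to 0.49, with groups apart and higher in the knock-in for 5 of them, against 7.37% of all features. Among 49 identity factors tested none passed, so acj6, ap and the others that set the members apart from other neurons did not move past the threshold with genotype. pros (prospero, a homeodomain factor) averaged 11900 ± 1803 CPM in knock-in and 9350 ± 240 CPM in control libraries (log2 0.35, edgeR adjusted p = 0.511).

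Housekeeping lists had medians a little below 0 with no gene past the threshold. The 32 proteasome subunit genes had a median log2 fold change of −0.25, the 82 cytosolic ribosomal protein genes −0.16 and the 71 nuclear genes of the respiratory chain −0.20. Groups were apart and lower in the knock-in for 5, 9 and 10 genes of these lists, against 8.49% of all features. Prosbeta3, a core proteasome subunit chosen after its values were seen, averaged 32.1 ± 7.23 CPM in knock-in and 47.7 ± 4.18 CPM in control libraries (log2 −0.57, SE 0.194, edgeR adjusted p = 0.427).

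Markers of other cells moved with the libraries. The 7 glial markers summed to 309 to 852 CPM in knock-in members and 196 to 344 CPM in control members, and only wrapper was at 0 in a library. The 8 fat body markers summed to 18.7 to 614 CPM in knock-in and 462 to 3868 CPM in control members, with Fbp1, Fbp2, Lsp2 and to at 0 in some library. Yp3 (a yolk protein) was held by 0.575% to 26.9% of knock-in members and 27.2% to 87.9% of control members, and 1 control cell held 17068 of its 41445 control UMIs. None of these markers passed. The 6 hemocyte markers summed to 48.7 to 54.5 CPM in knock-in and 42.4 to 67.3 CPM in control members, with He, Hml and srp at 0 in some library. The 3 muscle markers summed to 0.655 to 2.35 CPM in knock-in and 0.700 to 1.12 CPM in control members. The median percentage of mt: UMIs per member, which the limits capped, was 5.12%, 5.97% and 5.70% in knock-in and 2.98%, 3.89% and 3.53% in control libraries. The part of these values in the calls above was not tested.

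The other neurons of the same libraries gave the same directions. In glutamatergic and GABAergic neurons together, 21 of 8492 features passed (0.247%), 9 higher (0.106%) and 12 lower (0.141%). Groups were apart there for 12.4% of features, 5.83% higher and 6.61% lower. Of the 31 features that passed in cholinergic neurons, 30 were tested there, 30 had the same direction and 19 passed. Since the libraries are shared, this is no independent repeat. 5-HT1B averaged 101 ± 2.28 CPM in knock-in and 45.3 ± 5.02 CPM in control libraries in the other neurons (SD, n = 3 each; edgeR adjusted p = 0.0140). mthl8 was at 0 in the knock-in there too, against 30.8 ± 3.89 CPM in controls. pre-lola-G averaged 51.9 ± 9.58 CPM in knock-in and 11.8 ± 1.52 CPM in control libraries (edgeR adjusted p = 0.00541). Mip averaged 24.2 ± 17.4 CPM in knock-in and 20.5 ± 29.7 CPM in control libraries with overlap (edgeR adjusted p = 0.946). For Mip the difference between the classes was itself not past the threshold (edgeR interaction, adjusted p = 1).

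**Figure D5:**
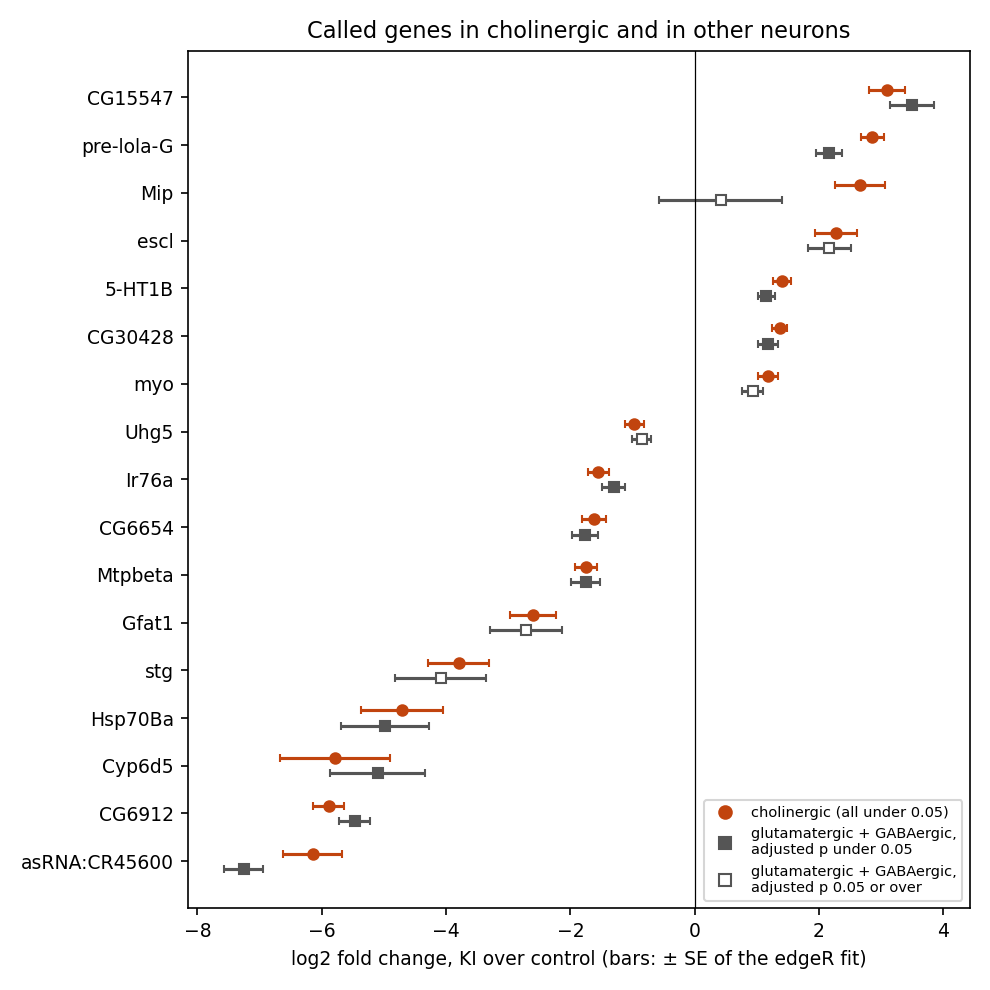
Log2 fold change of KI over control (x axis, ± SE of the edgeR fit) for passing genes in cholinergic neurons (circles) and in glutamatergic plus GABAergic neurons (squares, open where the adjusted p was 0.05 or over). mthl8 and CG18577, at or near 0 in the knock-in, and CG31445, not tested in the other neurons, are left out. The estimates lie on the same side of 0 in every row, and Mip is the gene furthest apart, at 2.66 against 0.42.

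A difference of the genotype effect between the classes was tested directly, by an interaction term in a fit that kept each library as its own block. It passed for 11 of 9204 features (0.120%), and none of these was among the 31. Nep1 (neprilysin, a peptidase) averaged 41.2 ± 14.1 CPM in knock-in and 24.9 ± 8.41 CPM in control libraries in cholinergic neurons. In the other neurons it averaged 30.8 ± 6.05 CPM in knock-in and 46.2 ± 24.8 CPM in control libraries, and the difference of the effects was 1.34 log2 (SE 0.173, adjusted p = 0.00679). pb (proboscipedia, a Hox factor) averaged 8.49 ± 1.32 CPM in knock-in and 2.94 ± 1.34 CPM in control libraries in cholinergic neurons. In the other neurons pb averaged 22.7 ± 5.06 and 25.6 ± 4.68 CPM in knock-in and control libraries, a difference of the effects of 1.96 log2 (SE 0.315, adjusted p = 0.0281). Few cholinergic neurons carried pb, with UMIs in 71 knock-in members (up to 29 in 1 cell) and 25 control members (up to 10). The difference did not pass in 7 of 19 alternatives for pb, among them the stricter gate, and in 2 of 19 for Nep1. The makeup of the other neurons differed between libraries. GABAergic cells were 41.8%, 36.5% and 36.4% of them in knock-in and 48.4%, 47.5% and 42.3% in control libraries. This share was not tested between the genotypes, and its part in these values was not tested either.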

How the data were processed

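Droplet 3' single-cell RNA-seq libraries of fly brains were deposited by the authors as raw UMI counts per feature and barcode. They name Cell Ranger 6.0 per the submitters' processing notes, while the file headers name version 4, and the genome build and the strand setting are not given in the sources used here. The members, lists and tests were chosen with earlier results of these data known. From the counts, barcodes were kept at 1000 UMIs or more and at most 20% mt: UMIs, and classes were set by UMI limits on transmitter genes. No doublet caller was run, and a ceiling of 3 class medians was tried instead. UMIs were summed per library and class, so that a library is the replicate. Genotype effects were tested with edgeR 4.0.16 (R 4.3.3; TMM factors, filterByExpr, quasi-likelihood test, Benjamini-Hochberg adjustment over all features). The effect in cholinergic neurons, that in glutamatergic plus GABAergic neurons and their difference (library as a block) were fitted separately. DESeq2 1.42.0 was an alternative, beside other limits, scalings, filters and left-out libraries. Shares and medians were compared by exact permutation tests over libraries. Binomial intervals and floors of 3 UMIs cover counting error only.

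The rule for naming took up to 10 increases and 10 decreases past the threshold by size, tau, the acetylcholine lists, list members that passed, the 2 most abundant members of other lists and the 2 largest insertions each way. Not all of these are printed, and genes added after their values were seen are marked as such. Positions are from Ensembl release 115 (BDGP6.54) by identifier, for 22016 of 22064 features. On simulated counts of 9018 features for the comparison in cholinergic neurons, 98% of genes changed 4-fold and 55% of genes changed 2-fold were recovered. In the same simulation 4 unchanged features were called. Every feature was given the same dispersion of 0.0401, so these rates do not cover genes that vary more between libraries. The antimicrobial peptide genes AttC and AttA, chosen after their values were seen, were 11.6-fold and 6.87-fold lower in knock-in members without passing (edgeR adjusted p = 0.399 and 0.484). Some items are not reported here.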

Additional observations from a re-analysis of the deposited data

Results flagged for a closer look

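For 11 features the genotype effect in cholinergic neurons differed from that in glutamatergic plus GABAergic neurons by a test of the difference itself (edgeR interaction with the library as a block), and each value here is the effect in cholinergic neurons minus that in the other neurons, in log2. Nep1 differed by 1.34 and pb by 1.96, as described with their levels above. cv-c (crossveinless c) differed by 1.19, with effects of 0.67 in cholinergic and −0.55 in the other neurons (adjusted p = 0.0367). VGAT, the vesicular GABA transporter gene, differed by 0.40, with 74.0 CPM in knock-in and 60.0 CPM in control cholinergic neurons (adjusted p = 0.0367). Its effect in the other neurons was −0.0857. VGAT averaged 311 CPM in GABAergic and 68.2 CPM in glutamatergic neurons, and the part of the GABAergic share of the other neurons was not tested. The difference did not pass in 10 of 19 alternatives for VGAT and in 7 of 19 for cv-c.

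lncRNA:CR44922 differed by 0.49, being lower in the knock-in by both fits, at −0.81 in cholinergic and −1.33 in the other neurons. Irc, an immune-regulated catalase gene, differed by −0.90, with effects of −1.90 and −1.06, and 1 control cell held 385 of its 1212 control UMIs in cholinergic neurons. CG7191 differed by −1.15 and Tektin-C by −3.81. Tektin-C averaged 1.91 CPM in knock-in and 3.29 CPM in control cholinergic neurons, with overlap. It was not tested by itself in the other neurons, and its difference did not pass in 8 of 18 alternatives. The difference did not pass in 12 of 19 alternatives for lncRNA:CR44922, in 10 of 19 for CG7191 and in 8 of 19 for Irc.

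The photoreceptor genes Rh2 (an opsin), Arr1 and Arr2 (arrestins) differed by −2.85, −1.77 and −1.59. Single cells held much of their UMIs in cholinergic neurons. For Rh2, 1 cell held 1160 of 1751 UMIs in the knock-in group and 1 cell held 821 of 1253 UMIs in the control group. For Arr2 the counts were 628 of 1412 in knock-in and 350 of 845 in control libraries, and for Arr1 226 of 455 and 150 of 238 in the same groups. The part of these cells in the differences was not tested. The difference did not pass in 13 of 19 alternatives for Arr2 and in 12 of 18 for Arr1. For Rh2 it lost its call in 6 of 19 and changed sign in 1.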

How the results depend on the processing

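The 31 features that passed in cholinergic neurons kept their direction under every alternative run, and 6 kept their call. Their number was 131 with DESeq2, 262 with only all-zero features left out, 118 with deep and shallow libraries as a term, and between 8 and 81 when 1 library was left out. In the other neurons 21 passed, against 68 with DESeq2, 263 with only all-zero features left out and between 5 and 75 with 1 library left out. For the difference between the classes 11 passed. That number was 2 at 2000 UMIs or more, 7 under the UMI ceiling, 2 under the stricter gate, 4 without cells of 3 or more Kenyon marker UMIs, 3 without cells of 2 or more UMIs of ey, Dop1R2 and crb, 2 with DESeq2, 120 with only all-zero features left out, 42 with the depth term, and between 0 and 21 with 1 library left out. The causes were not tested.

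Same-numbered libraries of the groups had correlated deviations of 0.0923, 0.305 and 0.258. Each control library correlated best with the knock-in library of its number. The main fit did not pair libraries by number, and whether the numbers mark pairs was not tested. With a replicate block the counts were 168 in cholinergic neurons, 86 in the other neurons and 51 for the difference. Knock-in replicate 1 correlated best with control replicate 2 (0.266).

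The difference in cholinergic share, 0.0574 percentage points, turned to −0.711 at 2000 UMIs, −0.0657 under the ceiling, −0.146 under the stricter gate, −1.33 and −0.302 without cells of the wider and narrower Kenyon lists, and −0.651 after thinning, and lay between −0.991 and 1.42 with 1 library left out. That among 3 neuron classes, −1.93, lay between −4.38 and 0.573.

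Genes near 0 changed sign. ChT was above 0 at a 10% mt: limit (0.0147), with DESeq2 (0.00594), RLE factors (0.00623) and the depth term (0.00881), and lay between −0.0734 and 0.105 with 1 library left out. mAChR-A was −0.00555 under the stricter gate and −0.0320 without the wider Kenyon list, and between −0.0659 and 0.115. nAChRalpha5 was −0.00103 with the replicate block and −0.118 with the depth term, and between −0.0949 and 0.163. nAChRalpha7 was 0.0206 at 2000 UMIs, 0.00560 with a library-specific minimum, 0.0125 under the ceiling, 0.0462 and 0.0174 without the wider and narrower Kenyon lists, 0.0117 with DESeq2 and 0.0121 with RLE factors, and between −0.0705 and 0.0590. With 1 library left out, nAChRalpha2 lay between −0.218 and 0.0418, nAChRalpha6 between −0.0652 and 0.211, nAChRbeta1 between −0.226 and 0.0276, nAChRbeta2 between −0.0260 and 0.188 and tau between −0.52 and 0.25. The Rh2 difference was 1.01 without the wider Kenyon list.

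Members were chosen by detected UMIs, so their number depends on depth, and features of few UMIs rest on few cells. With 3 pools per genotype, exact tests over libraries cannot go below 0.1.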

Other observations

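Features at 0 UMIs in all libraries of 1 genotype and with at least 30 UMIs in the other numbered 22 in cholinergic neurons, 12 at 0 in control and 10 at 0 in knock-in libraries. Of these, mthl8 and FBti0018961 passed in the edgeR test. CG32581 had 786 UMIs in 698 knock-in members and none in control members, or 11.3, 8.49 and 64.7 CPM in knock-in libraries, and was at least 173-fold higher against a floor of 3 UMIs over the control group (adjusted p = 0.136). FBti0020448 had 334 UMIs in knock-in members and none in control members (adjusted p = 0.0750). CG31681 had no UMI in knock-in members and 180 in control members, and Send1 had none against 123, and neither passed the filter on low counts. These features were chosen after their values were seen.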
